A study of Mus musculus with 9 samples.

Results

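Granins and prohormone processing enzymes are proteins of the dense-core secretory granule, the compartment in which endocrine cells store and mature their peptide hormones. The genes described here are 10 of the 55450 genes counted, chosen by name from their known function, with earlier results of these data known. They are 7 granins or granin-like genes (*Chga*, *Chgb*, *Scg2*, *Scg3*, *Scg5*, *Vgf* and *Pcsk1n*) and 3 enzyme genes (*Pcsk1*, *Pcsk2* and *Cpe*). All 10 averaged 5 or more counts in a library and so were among the 19371 genes tested.

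RNA of the developing and the adult mouse pituitary gland was compared by sequencing poly(A) RNA in 9 libraries, each from a single animal of strain 129Sv/c57BL6J. The embryo group was Rathke's pouch, the epithelial fold that forms the anterior and intermediate lobes, from 7 Sox2Egfp/+ embryos at e13.5. The adult group was the pituitary of 2 mice at postnatal week 8 after removal of the posterior lobe, which leaves the anterior and intermediate lobes, and is labelled anterior pituitary. By the study's methods both stages included males and females, and sex is not given for the single samples. These were whole tissues, so fewer cells of a type and less RNA per cell cannot be told apart, and stage cannot be told apart from the difference in tissue dissected. An Egfp allele is stated for the embryos only. With 2 adults, the spread of that group rests on a single difference.

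Read pairs counted on genes numbered 16738863 to 28537311 per embryo (median 24687556), with 36421545 and 31191117 for adults 1 and 2. Levels are in CPM, the read pairs of a gene relative to a library size adjusted by edgeR's TMM method, and in CPM per kb of transcript where genes are compared with each other. A level of 3 counts corresponded to at most 0.220 CPM in an embryo and 0.0843 CPM in an adult library, a limit that covers counting error only. Embryos 1 and 4 stood apart from the other libraries. Genes took up 59.7% and 62.8% of their read pairs. In the other embryos this share was 73.9% to 80.0%, and in adults 1 and 2 it was 84.0% and 83.7%. The summed level of 7 erythroid genes, led by mean CPM by *Hbb-y* in the embryo and *Hbb-bs* in the adult, was 178300 and 223500 CPM in embryos 1 and 4, 6365 to 19800 CPM in the other embryos, and 762 and 1974 CPM in the adults. Embryo 2 stood apart in other markers. Its summed genes of pouch epithelium were the lowest of the embryos, 910 CPM against 1445 to 2640 CPM, and its endothelial, macrophage and infundibular sums were the highest, at 507, 253 and 277 CPM.

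Granins are acidic proteins that aggregate with hormones in the trans-Golgi network and are packed with them into granules, and many are themselves cut into peptides. The convertases PC1/3 and PC2, encoded by *Pcsk1* and *Pcsk2*, cut prohormones at pairs of basic residues, and carboxypeptidase E then removes the basic residues left at the new ends. In the pituitary gland, corticotropes of the anterior lobe carry mainly the first convertase and release adrenocorticotropin, while melanotropes of the intermediate lobe carry both and cut the same precursor, pro-opiomelanocortin, further to melanotropin.

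Transcripts of all 10 genes were more abundant in the adult than in any embryo. The fold change was largest for *Pcsk2* at 258-fold and *Chgb* at 68.5-fold, and smallest for *Chga* at 3.88-fold. A gene was called where its fold change exceeded 4 and its p-value, from edgeR's quasi-likelihood test with Benjamini-Hochberg adjustment over all genes tested, was below 0.05. Of the 10 genes, 9 were called, all higher in the adult, and *Chga* was not. Of all genes tested, 25.8% were called in either direction and 14.6% were called higher in the adult. Both adults lay above all 7 embryos for 10 of 10 genes and for 32.9% of all genes tested. Log2 fold changes are given as adult over embryo throughout. Their median was 4.37 over the 7 granins and 4.28 over the 3 enzymes, against 0.04 over all genes tested. Without embryos 1 and 4, the same number of the 10 genes was called, 9, and the log2 fold changes ran from 1.76 for *Chga* to 7.68 for *Pcsk2*. Without embryo 2 all 10 were called, from 2.05 for *Chga* to 8.27 for *Pcsk2*.

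**Figure D1:**
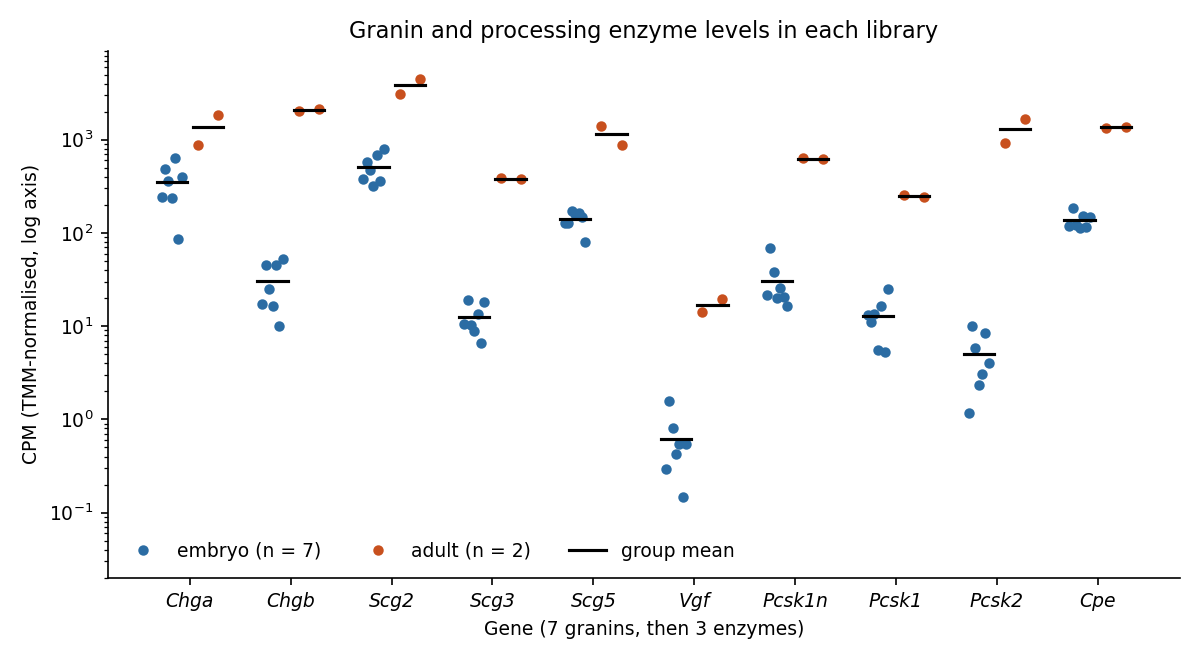
Level of each gene in each library, in TMM-normalised CPM on a log axis; points are single animals (7 embryos, 2 adults) and bars are group means. For every gene both adults lie above all 7 embryos, by the narrowest margin for Chga (868 CPM in the lower adult, 642 CPM in the highest embryo).

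The sequences before the start sites of these genes were also compared, and their part in the difference between the stages was not tested. RefSeq start sites in GRCm38.p6 were at hand for 8 of the 10, all but *Vgf* and *Cpe*, and the 250 bases before each were searched on both strands. The cAMP response element TGACGTCA, a sequence read the same on both strands and known to bind the factor CREB, was present in 3 of the 8 (*Chgb*, *Scg2* and *Pcsk1*) and in 1.55% of 32851 mouse promoters. It began 72, 68 and 78 bases before the RefSeq start. Only exact copies were counted, so promoters without one may still hold a variant of the element. The element and 10 bases on each side are shown 5′ to 3′ on the strand of the gene, with the element in capitals, to compare its surroundings, at chr2:132781560-132781587 on the plus strand, chr1:79440077-79440104 on the minus strand and chr13:75089769-75089796 on the plus strand. For *Chgb* and *Scg2* these bases lie inside the gene as Ensembl 96 annotates it, which starts further upstream than in RefSeq, and for *Pcsk1* they lie before it.
Chgb: ggctgctccgTGACGTCAgggctgagcg
Scg2: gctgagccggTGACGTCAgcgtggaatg
Pcsk1: caggtagatcTGACGTCAagagatggct

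The promoter of *Pcsk2*, the gene with the largest fold change of the 10, held none of these elements in the same window. It was instead rich in the GC box GGGCGG, the letters bound by Sp1. The 150 bases before its start, at chr2:143545983-143546132 on the plus strand, held 6 copies, some of which overlap, and 84% of these bases were G or C, against a median of 54% over all promoters. They are shown with the GC boxes in capitals.
Pcsk2: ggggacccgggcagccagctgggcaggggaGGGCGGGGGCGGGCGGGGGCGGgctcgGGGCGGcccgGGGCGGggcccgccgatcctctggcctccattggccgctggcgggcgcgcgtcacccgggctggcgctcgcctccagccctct
The GC box was present before 5 of the 8 starts (*Chga*, *Chgb*, *Scg5*, *Pcsk1n* and *Pcsk2*) and in 32.7% of all promoters. TATAAA was in none of the 8 and in 12.4% of all promoters, and TAATCC, the core of the sites of Pitx factors, was in 1 of the 8 (*Pcsk1*) and in 6.25% of all. These matches describe letters in a window and do not show binding.

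Among the classical granins, chromogranin B and secretogranin II rose from embryo to adult, and chromogranin A was higher in both adults without passing the threshold on fold change. *Chgb* (ENSMUSG00000027350, chromosome 2, 132781278 to 132795079 in GRCm38), whose promoter element is shown above, ran from 10.0 CPM in embryo 6 through a median of 25.3 to 53.2 CPM in embryo 7. In adults 1 and 2 it had 2012 and 2147 CPM. The lower adult was thus 37.8-fold above the highest embryo, and the adults were close to each other. This made a log2 fold change of 6.10 (standard error 0.47, edgeR adjusted p = 4.8e-07).

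*Scg2* (ENSMUSG00000050711, chromosome 1, 79434669 to 79440120) encodes secretogranin II, the precursor of secretoneurin. Its level ran from 321 CPM in embryo 4 through a median of 474 to 793 CPM in embryo 7, and it was 3124 and 4511 CPM in the adults. It was already among the more abundant transcripts of the pouch, and the lower adult lay 3.94-fold above the highest embryo. In log2 terms the fold change was 2.90 (standard error 0.33, edgeR adjusted p = 1.1e-05).

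*Chga* (ENSMUSG00000021194, chromosome 12, 102554969 to 102565028) encodes chromogranin A, the precursor of vasostatin and pancreastatin. It had 85.1 CPM in embryo 6, a median of 361 CPM and 642 CPM in embryo 5, and 868 and 1862 CPM in adults 1 and 2. The groups did not overlap, but the lower adult was only 1.35-fold above the highest embryo, and embryo 6 was far below the other embryos, of which the next had 240 CPM. The log2 fold change of 1.96 (standard error 0.48, edgeR adjusted p = 0.00386) fell just short of a fold change of 4. It was called under 8 of 20 alternatives. In 7 of these the fold change exceeded 4, among them the DESeq2 Wald test (2.01) and a per-library correction for the length and GC content of transcripts (2.65), and in the other the threshold itself was lower. Without adult 2 it was 1.32 (edgeR adjusted p = 0.12), and without adult 1 it was 2.42 (edgeR adjusted p = 0.0059).

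The other granule proteins of this family rose from low embryonic levels. *Scg3* (ENSMUSG00000032181, chromosome 9, 75643189 to 75684056) encodes secretogranin III, which binds chromogranin A and cholesterol of the granule membrane. It ran from 6.64 CPM in embryo 6 through a median of 10.5 to 19.2 CPM in embryo 2, and had 384 and 383 CPM in the adults. The adults were nearly equal and far above every embryo, and the log2 fold change was 4.94 (standard error 0.32, edgeR adjusted p = 1.1e-07).

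*Vgf* (ENSMUSG00000037428, chromosome 5, 137026392 to 137033351), a precursor of neuroendocrine peptides first found as a gene induced by nerve growth factor, was the least abundant of the 10. Its embryo libraries had only 3 to 47 counts, from 0.149 CPM in embryo 6 through a median of 0.544 to 1.59 CPM in embryo 2. The level in embryo 6 rested on 3 counts. The adults had 14.3 and 19.5 CPM, above every embryo, and the fitted change was 4.71 in log2 units (standard error 0.54, edgeR adjusted p = 1.3e-05).

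The remaining members of the granin group are partners of the convertases. *Scg5* (ENSMUSG00000023236, chromosome 2, 113776362 to 113829121) encodes the chaperone that PC2 needs to become active, whose tail also inhibits it. It ran from 79.8 CPM in embryo 7 through a median of 150 to 172 CPM in embryo 3, and had 1414 and 872 CPM in adults 1 and 2. Embryo 7 was the low library here although it was the high one for *Chgb* and *Scg2*, and adult 1 was above adult 2. The change was 3.02 in log2 units (standard error 0.28, edgeR adjusted p = 2.0e-06), and 3.92 with the length and GC correction.

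*Pcsk1n* (ENSMUSG00000039278, chromosome X, 7919822 to 7924410) encodes proSAAS, an inhibitor of PC1/3. It ran from 16.4 CPM in embryo 7 through a median of 21.6 to 69.3 CPM in embryo 2, and had 634 and 622 CPM in the adults. Embryo 2 lay far above the other embryos, of which the next had 37.9 CPM, and still 8.98-fold below the lower adult. The log2 fold change was 4.37 (standard error 0.40, edgeR adjusted p = 2.0e-06), and 4.97 with the length and GC correction. Its last bases overlap *Eras* on the opposite strand, which had at most 9 counts in any library.

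Of the enzymes, *Pcsk2* changed most. *Pcsk2* (ENSMUSG00000027419, chromosome 2, 143546156 to 143816285) had 1.17 CPM in embryo 1, a median of 4.08 CPM and 10.0 CPM in embryo 2, from 16 to 296 counts, and 915 and 1683 CPM in adults 1 and 2. The lower adult was 91.5-fold above the highest embryo. The log2 fold change was 8.01 (standard error 0.54, edgeR adjusted p = 1.7e-07), and 7.15 with the length and GC correction. *Pcsk2* overlaps the antisense genes *Pcsk2os1* and *Pcsk2os2*, so the strand-specific count matters for it. The unstranded count kept 68.1% to 78.8% of its read pairs in 8 libraries and 12.5% in embryo 1, where 2 of 16 were left.

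*Pcsk1* (ENSMUSG00000021587, chromosome 13, 75089826 to 75134861) ran from 5.30 CPM in embryo 6 through a median of 13.3 to 25.03 CPM in embryo 7, and had 258 and 244 CPM in the adults. The adults were within 1.06-fold of each other and 9.76-fold or more above every embryo. The log2 fold change was 4.28 (standard error 0.40, edgeR adjusted p = 2.5e-06). Its transcript is the longest of the 10 at 5040 bases and the poorest in G and C at 40.6%, and with the length and GC correction the log2 fold change was 2.84 (edgeR adjusted p = 1.6e-04), still called.

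*Cpe* (ENSMUSG00000037852, chromosome 8, 64592542 to 64693054) varied least among the embryos, from 113 CPM in embryo 4 through a median of 121 to 185 CPM in embryo 2. It had 1343 and 1365 CPM in the adults, 7.27-fold or more above every embryo. The change in log2 units was 3.31 (standard error 0.24, edgeR adjusted p = 2.8e-07).

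**Figure D2:**
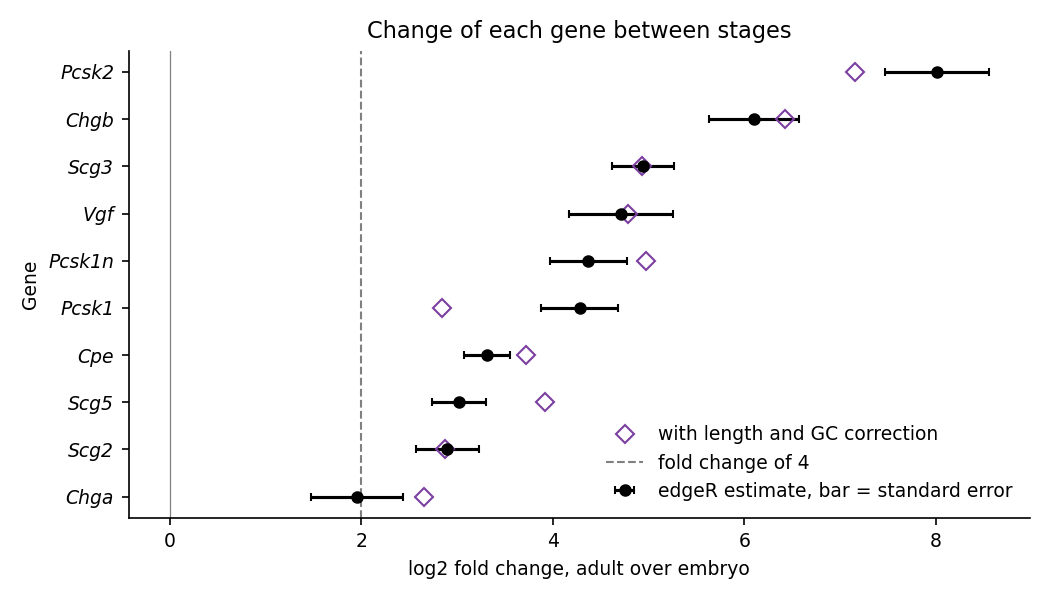
Log2 fold change of each gene, adult over embryo, from edgeR (filled points, bars are standard errors), with the value after correction for transcript length and GC content (open diamonds) and the fold change of 4 needed for a call (dashed line). Chga lies at 1.96, just below that line, and Pcsk1 moves most with the correction, from 4.28 to 2.84.

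The order of the genes by level differed between the stages. Per kb of transcript, *Scg2* and *Chga* had the highest levels in the embryo, with 204 ± 70.8 and 187 ± 97.1 CPM per kb (SD, n = 7), and did not differ beyond their spread. *Scg5* followed with 116 ± 26.3 CPM per kb, within the spread of *Chga*, and *Cpe* with 64.4 ± 12.4 CPM per kb. A wide gap separated these 4 genes from *Pcsk1n* with 13.8 ± 8.45 and *Chgb* with 11.0 ± 6.25 CPM per kb, which did not differ beyond their spread. *Scg3*, *Pcsk1*, *Pcsk2* and *Vgf* were lower still, the last with 0.220 ± 0.168 CPM per kb. Among the genes tested, ranked by mean CPM per kb, *Scg2* stood at place 427 in the embryo and *Pcsk2* at place 12942.

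In the adult, *Scg2* was again first, with 1518 ± 390 CPM per kb (SD, n = 2), at place 12 among the genes tested. *Scg5* with 946 ± 317, *Chgb* with 759 ± 34.8, *Chga* with 725 ± 373 and *Cpe* with 640 ± 7.40 CPM per kb came next, and neighbours in this order did not differ beyond the spread between the adults. *Pcsk1n* with 286 ± 3.65 and *Pcsk2* with 275 ± 115 CPM per kb also had like levels. *Chgb* moved from place 5172 to place 27 and *Pcsk2* to place 116, while *Vgf* remained the lowest of the 10 with 5.96 ± 1.29 CPM per kb.

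The sum of the 7 granins was 537 ± 163 CPM per kb in the embryo (SD, n = 7) and 4401 ± 478 CPM per kb in the adult (SD, n = 2), and its makeup differed. *Chgb* made up 1.93% ± 0.69 of the sum in the embryo (1.11% to 3.10%) and 18.1% and 16.5% in the adults. *Scg3* made up 0.716% to 1.23% in the embryos and 3.97% and 3.39% in adults 1 and 2. *Chga* made up 13.8% to 43.6% in the embryos and 11.4% and 20.9% in adults 1 and 2, which overlapped because embryo 6 was low. *Scg2* held 31.3% to 50.3% in the embryos against 30.6% and 37.9% in the adults, and *Scg5* 10.6% to 37.8% and 28.8% and 15.2%, so neither share was separated by stage. These shares are a description, with no test.

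**Figure D3:**
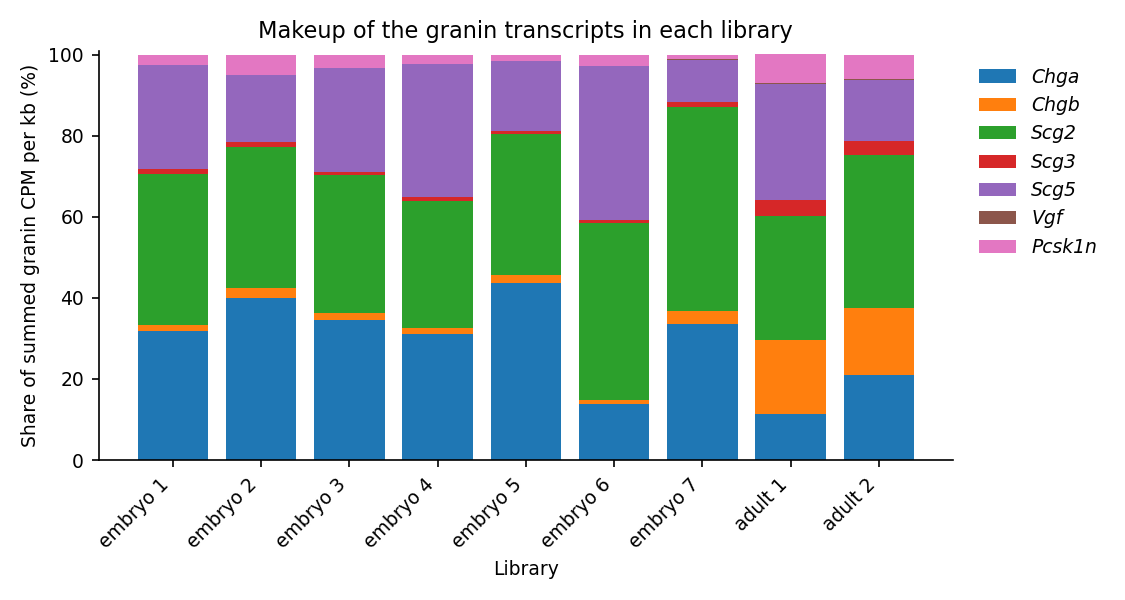
Share of each granin in the summed CPM per kb of the 7 granins, stacked to 100% for each library. The segment of Chgb is 1.11% to 3.10% in the embryos against 18.1% and 16.5% in the adults, and embryo 6 has the smallest embryonic segment of Chga (13.8%).

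Ratios within a library do not depend on how libraries are scaled, and show how each convertase stood to the other and to its partner. With the transcript lengths used here, *Pcsk1* exceeded *Pcsk2* per kb in 6 of 7 embryos, and *Pcsk2* exceeded *Pcsk1* in both adults. Other lengths would multiply the ratio by the same factor in every library, which could change these counts but not the difference between the stages. The ratio of *Pcsk1* to *Pcsk2* ran from 0.590 in embryo 6 through 2.24 at the median to 10.6 in embryo 1, and was 0.264 and 0.136 in the adults. The groups did not overlap, and the mean log2 ratio was lower in the adult, with a difference of -3.81 (two-sided exact permutation p = 0.0278, adjusted over the 3 ratios p = 0.0417, n = 7 and 2). This is the smallest p that the 36 arrangements allow. The adjusted exact permutation p was above 0.05 under 11 of 12 alternatives, 10 of which leave out libraries and so allow fewer arrangements. The other was the unstranded count (difference -4.08, adjusted exact permutation p = 0.125).

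The ratio of *Scg5* to *Pcsk2*, chaperone to convertase, ran from 50.5 in embryo 2 through 115 at the median to 425 in embryo 1. It was 6.04 and 2.03 in the adults, far below every embryo. The difference of the mean log2 ratio was -5.25 (two-sided exact permutation p = 0.0278, adjusted p = 0.0417, n = 7 and 2). With the length and GC correction the difference was smaller, -3.51 (adjusted exact permutation p = 0.0278), with 15.5 and 5.17 in the adults and 41.0 in the lowest embryo. Per kb, the chaperone transcript was thus in excess of the convertase transcript in every library, by a smaller factor in the adults. For this ratio too the adjusted exact permutation p was above 0.05 under the same 11 alternatives, at 0.0833 for the unstranded count. Embryo 1, with the highest value of both ratios, had 16 counts of *Pcsk2*. Without embryos 1 and 4 the differences were -3.45 and -4.71, each with an adjusted exact permutation p of 0.0714, and the groups still did not overlap.

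The ratio of *Pcsk1n* to *Pcsk1*, inhibitor to convertase, ran from 1.51 in embryo 7 through 6.49 at the median to 14.2 in embryo 2, and was 5.65 and 5.85 in the adults. The adults lay within the embryo range, and the difference of 0.08 in the mean log2 ratio was smaller than the spread between embryos (SD 1.07, two-sided exact permutation p = 0.917, n = 7 and 2). This result depended on the length and GC correction. With it the embryos ran from 2.10 to 8.74 and the adults had 15.5 and 17.7, a difference of 2.04 (adjusted exact permutation p = 0.0278). The correction is fitted to each library's deviation from the mean of all libraries. It can therefore also take up stage differences that follow length or GC content, and which value is nearer the truth cannot be told.

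**Figure D4:**
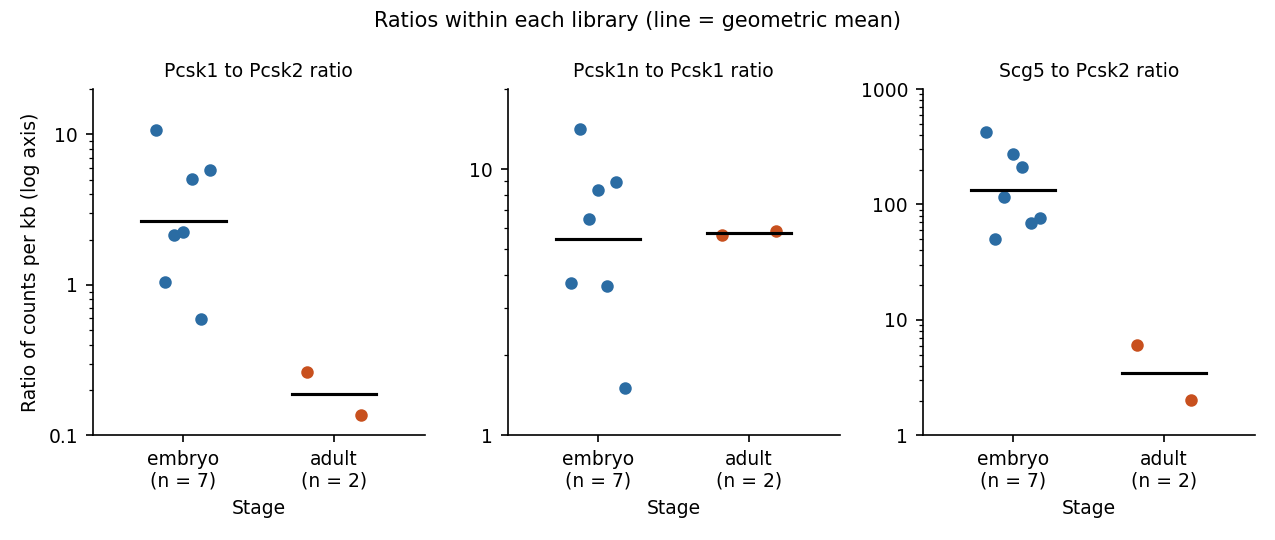
Ratio of counts per kb within each library on log axes, for Pcsk1 to Pcsk2, Pcsk1n to Pcsk1 and Scg5 to Pcsk2, before correction for length and GC content; points are single animals and lines are geometric means. In the first and last panels both adults lie below all embryos, and in the middle panel the adults (5.65 and 5.85) lie among the embryos (1.51 to 14.2).

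The embryos differed from each other more in 8 of these 10 genes than in the median gene. The coefficient of variation over the 7 embryos was 34.8% for *Scg2*, 38.1% for *Scg3*, 52.1% for *Chga* and 52.4% for *Pcsk1*. It was 56.5% for *Chgb*, 61.2% for *Pcsk1n*, 65.5% for *Pcsk2* and 76.4% for *Vgf*, whose counts were low. The median was 29.6% and the 90th percentile 49.7% over the 11763 genes that averaged 100 or more counts in the embryos. *Cpe* with 19.3% and *Scg5* with 22.6% varied less than that median. Embryo 6 was the lowest library for *Chga*, *Chgb*, *Scg3*, *Vgf* and *Pcsk1*, and embryo 2 was the highest for *Scg3*, *Vgf*, *Pcsk1n*, *Pcsk2* and *Cpe*. Its summed level of 9 neuronal genes, 398 CPM, was within the range of the other embryos (223 to 406 CPM). It was the highest embryo for 5 of these 9 genes and the lowest for *Nefl* and *Nefm*, and the part of its cell makeup in these levels was not tested. Embryo 7 was the highest for *Chgb*, *Scg2* and *Pcsk1* and the lowest for *Scg5* and *Pcsk1n*. Embryos 1 and 4, which stood apart in erythroid transcripts, were the lowest for *Pcsk2* (embryo 1) and for *Scg2* and *Cpe* (embryo 4).

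The adults differed from each other in some of these genes by more than counting error. *Chga* was 2.14-fold higher in adult 2 than in adult 1 (95% interval from the counts 2.12 to 2.17), *Pcsk2* was 1.84-fold higher (1.82 to 1.86) and *Scg2* was 1.44-fold higher (1.43 to 1.46). *Scg5* was 1.62-fold higher in adult 1 (1.599 to 1.644). *Vgf* was 1.36-fold higher in adult 2 (1.217 to 1.52). *Cpe*, *Scg3*, *Pcsk1n*, *Pcsk1* and *Chgb* lay within 1.07-fold. Of 13348 genes that averaged 100 or more counts in the adults, 8.41% were more than 1.5-fold apart. Among hormone and lineage genes, *Pomc*, the precursor that the convertases cut in corticotropes and melanotropes, was 2.29-fold higher in adult 2, and *Tbx19*, a factor of both cell types, was 1.502-fold higher. *Pax7*, the factor of melanotropes, was 1.10-fold higher. The other factors of endocrine lineages went both ways. In adults 1 and 2, *Pou1f1* had 138 and 89.3 CPM, *Neurod4* 68.2 and 51.5 CPM and *Neurod1* 12.3 and 9.17 CPM. *Isl1* had 18.5 and 22.1 CPM, and *Nr5a1* was close at 51.6 and 50.8 CPM. *Tshb* and *Gh* were 1.92-fold and 1.19-fold higher in adult 2. *Lhb*, *Fshb*, *Prl* and *Cga* were 2.03-fold, 3.61-fold, 2.11-fold and 2.04-fold higher in adult 1. The adults also differed in sex, which cannot be told apart here from other differences between the animals. With 1 library for each animal these differences have no replicate check, and the part of the cell makeup in them was not tested.

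**Figure D5:**
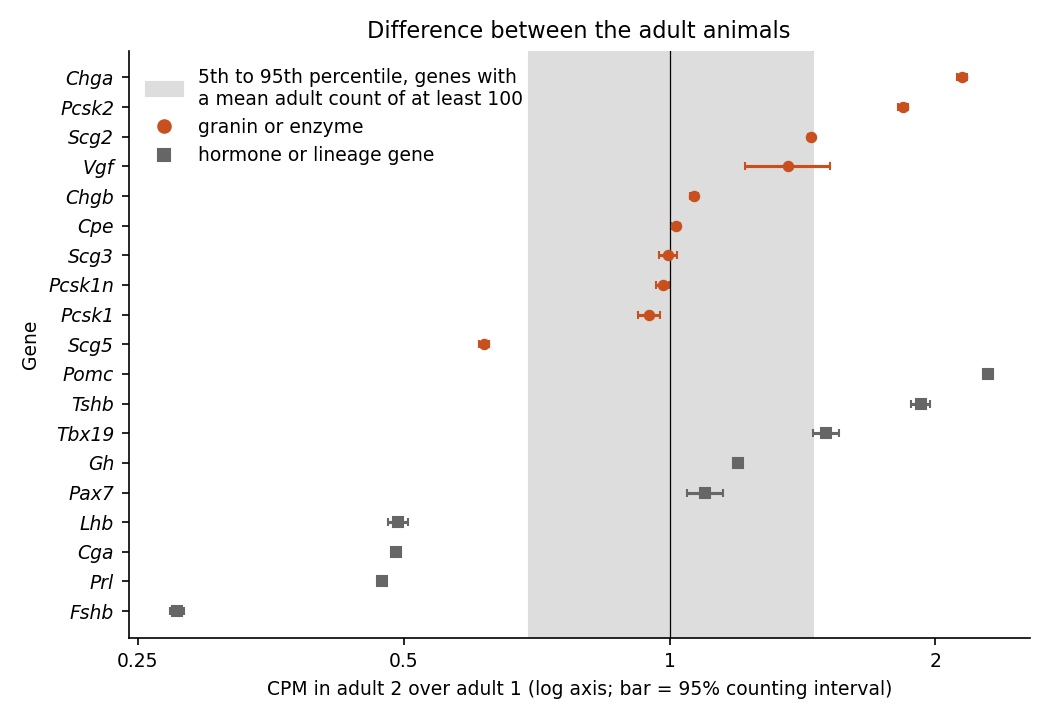
Level in adult 2 over adult 1 for the 10 genes (circles) and for 9 hormone and lineage genes (squares), on a log axis, with 95% intervals that cover counting error only. The grey band holds the 5th to 95th percentile (0.693 to 1.46) of genes averaging 100 or more counts in the adults; Chga (2.14) and Pcsk2 (1.84) lie above it and Scg5 (0.617) below it.

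Other genes of peptide processing were taken from 5 lists by function. Of 52 genes, 49 were tested, and 16 were called higher in the adult and 9 higher in the embryo, against 14.6% and 11.3% of all genes tested. Among the other convertases, *Pcsk6* rose, from 1.91 to 14.3 CPM in the embryos to 223 and 80.1 CPM in the adults (log2 fold change 4.25, standard error 0.49, edgeR adjusted p = 1.4e-05). *Furin*, the convertase of the constitutive pathway, had 32.5 ± 8.495 CPM in the embryo (SD, n = 7) and 57.9 and 51.9 CPM in the adults, and was not called. Of 7 carboxypeptidases related to *Cpe*, *Cpxm2* rose, from 0.440 to 2.61 CPM in the embryos to 141 and 127 CPM in the adults, and *Cpxm1* was lower in the adult, with 44.8 to 103 CPM in the embryos and 7.90 and 6.80 CPM in the adults. *Cpd*, the carboxypeptidase of the trans-Golgi network, was not called, with 21.8 to 54.7 CPM in the embryos and 112 and 114 CPM in the adults.

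Of 6 genes listed under peptide modification, 3 were called, all higher in the adult. *Pam*, which amidates peptides, had 17.4 to 53.6 CPM in the embryos and 602 and 766 CPM in the adults (log2 fold change 4.22, standard error 0.32, edgeR adjusted p = 3.8e-07). *Qpct*, which forms pyroglutamate ends, had 2.26 to 7.10 CPM and 57.1 and 42.8 CPM. *Oacyl*, named for its likeness to acyltransferases and not known to act on peptides, was the third, with 0.220 to 1.02 CPM and 865 and 1247 CPM. Of 9 tested genes of the granule membrane and granule formation, 6 were called, all higher in the adult. Among them were the receptor-type phosphatase relatives *Ptprn* (log2 fold change 3.57) and *Ptprn2* (5.40), and *Ccdc186* (3.27) and *Hid1* (2.20), which act in granule maturation. *Eipr1*, which acts in the same process, had 26.1 to 66.4 CPM in the embryos and 19.6 and 17.5 CPM in the adults and was not called.

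Peptide precursors, the substrates of the pathway, went both ways, with 5 of 20 called higher in the adult and 7 higher in the embryo. *Pomc* had 117 to 451 CPM in the embryos and 27010 and 61940 CPM in the adults (log2 fold change 7.58, standard error 0.48, edgeR adjusted p = 1.0e-07). *Nucb2*, the precursor of nesfatin, had 5.61 to 12.6 CPM and 120 and 105 CPM (log2 fold change 3.64). *Avp*, *Oxt* and *Gal* were also called higher in the adult. The first and second of these are also in the list of the infundibulum and posterior lobe. *Gal* had 46.7 CPM in adult 1 but 1.24 CPM in adult 2, against at most 1.10 CPM in an embryo. *Penk*, the precursor of enkephalins, was higher in the embryo, with 35.9 to 107 CPM against 1.67 and 3.37 CPM, as were *Pnoc* with 3.81 to 14.1 CPM against 0.339 and 0.253 CPM, and *Cck* with 6.34 to 30.3 CPM against 2.59 and 2.08 CPM.

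Markers of the cell types that the tissues could hold also differed between the stages, and their part in the changes of the 10 genes was not tested. The leading gene of each list is given by mean CPM in the group. Of all genes tested, 14.6% were called higher in the adult and 11.3% higher in the embryo. Of 7 hormone genes, 6 were called higher in the adult, and their summed level was 870 to 1919 CPM in the embryos and 152400 and 160000 CPM in the adults, led by *Cga* in the embryo and *Gh* in the adult, although *Prl* exceeded *Gh* in adult 1. The exception was *Tshb*, with 76.4 to 432 CPM in the embryos and 229 and 440 CPM in the adults. Of 7 factors of endocrine lineages, 5 were called higher in the adult, and their sum was 50.2 to 80.9 CPM in the embryos and 518 and 532 CPM in the adults, led by *Isl1* in the embryo and *Tbx19* in the adult. *Pax7* had at most 7 counts in any embryo. Of 11 genes of pouch epithelium, 4 were called higher in the embryo, and their sum, led by *Pitx1* in the embryo and *Epcam* in the adult, was 910 to 2640 CPM in the embryos and 1074 and 975 CPM in the adults.

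Granins and convertases are also expressed by neurons, and the floor of the forebrain lies against the pouch. Of 9 neuronal genes, only *Rbfox3* was called, higher in the adult, against 14.6% of all genes tested. Both adults lay above all embryos for 3 of the 9 (*Elavl4*, *Dcx* and *Rbfox3*), against 32.9% of all genes tested. The sum of the 9, led by *Nefl* in the embryo and *Tubb3* in the adult, overlapped between the groups. It was 223 to 406 CPM in the embryos and 271 and 211 CPM in the adults. Of 8 genes of the infundibulum and posterior lobe, 4 were called higher in the embryo and 2 higher in the adult, and their sum, led by *Rax* in the embryo and *Col25a1* in the adult, was 100 to 277 CPM in the embryos and 46.8 and 60.8 CPM in the adults. *Avp*, which marks posterior lobe axons, was at 0 counts in every embryo and had 72 and 122 counts in the adults. Mesenchyme and cartilage genes were called higher in the embryo in 6 of 9 cases, with *Prrx1* called higher in the adult. They summed to 866 to 2540 CPM in the embryos and 629 and 414 CPM in the adults, led by *Col3a1* in the embryo and *Col1a2* in the adult. *Matn1*, which was not tested, was at 0 in both adults and in embryos 3 and 4. It had at most 16 counts in an embryo. Endothelial genes were called in 1 of 5 cases, *Emcn*, higher in the embryo, with sums of 141 to 507 CPM and of 121 and 72.8 CPM, led by *Emcn* and in the adult by *Kdr*. No macrophage gene of 5 was called, with sums of 105 to 253 CPM and of 82.6 and 126 CPM, led by *C1qb* in the embryo and *Csf1r* in the adult. Of the 7 erythroid genes, 6 were called higher in the embryo.

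For each of the 10 genes, the gene with the most similar pattern over the 9 libraries was found among the 12744 genes that averaged 100 or more counts, by the root mean square difference of centred log2 CPM. The closest match was *Smpd3* to *Cpe* (0.156), followed by *Kbtbd11* to *Scg2* (0.208), the noncoding *AC026385.1* to *Scg5* (0.262) and *Dmpk* to *Scg3* (0.269). *Prrt1* was nearest to both *Pcsk1n* (0.313) and *Vgf* (0.454), and *Dner* was nearest to *Pcsk1* (0.322). *Tmem145* was nearest to *Chga* (0.438) and *Tmem63c* to *Chgb* (0.452). The loosest match was *Kl* to *Pcsk2* (0.579), with a log2 fold change of 8.53. Every pattern compared includes the difference between the stages, which each library shares with its group. How far a match rests on that difference was not tested.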

How the data were processed

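The authors prepared directional poly(A) libraries, trimmed the reads with Trimmomatic 0.39, aligned them to mm10 with STAR 2.7.5b and deposited STAR's raw count of read pairs per gene of Ensembl 96, without normalisation. The strand-specific count was used. Lines of each file that name no gene (unmapped, multimapping, no feature, ambiguous) were left out of library sizes, and 59.7% to 84.0% of read pairs were counted on genes. Symbols, positions and transcript lengths came from GENCODE M21, in which all 55450 identifiers were found, and length is that of the longest basic protein-coding transcript. Promoters came from RefSeq (GRCm38.p6).

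Counts were scaled with TMM, and the 19371 genes averaging 5 or more counts were fitted with the quasi-likelihood test of edgeR 4.0.16 in R 4.3.3, with stage as the only term (two-sided, Benjamini-Hochberg adjustment over all genes tested). The fit was also run on simulated counts, whose outcome is not given here and is not used for any result. Ratios were compared by two-sided exact permutation of the libraries, adjusted over 3 ratios, in Python 3.11.15 with numpy 2.4.6, pandas 2.3.3 and scipy 1.17.1, and figures were drawn with matplotlib 3.10.9. Alternatives were DESeq2 1.42.0, other scalings, filters and fold thresholds, the unstranded count, per-library offsets from 4-degree-of-freedom splines on the length and GC content of transcripts, a replicate block, and leaving out libraries. The members and gene lists were chosen with earlier results of these data known. Genes named are the 10 members, genes of the lists, for each member the gene with the nearest pattern, and genes that overlap a member on the other strand. Counts of the lists include genes that are not named. Intervals cover counting error only.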

Additional observations from a re-analysis of the deposited data

Results flagged for a closer look

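Of 20 sets of 7 embryo values checked (10 levels, 3 ratios and 7 granin shares), 2 had a library far from the others, and chance flags about 1 in 20. *Pcsk1n* had 69.3 CPM in embryo 2, from 2051 counts, where the next embryo had 37.9 CPM and the lowest had 16.4 CPM, so that the gap was 0.593 of the whole range. *Chga* made up 13.8% of the granin sum in embryo 6, where the next embryo had 31.2% and the highest had 43.6%, a gap of 0.587 of the range. The level of *Chga* in embryo 6, 85.1 CPM, rested on 1719 counts. Embryo 2 also had the lowest sum of pouch genes and the highest endothelial sum, and their part in this level was not tested. Without embryo 2, *Pcsk1n* was still called higher in the adult, as was the case without any other library.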

How the results depend on the processing

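Of the 10 genes, 9 or 10 were called under each of 20 alternatives, and the log2 fold changes of all but *Chga* stayed called, at 2.62 or more. *Chga* ran from 1.32 to 2.65. With both adults kept, its adjusted p against no change (edgeR or DESeq2) was at most 0.012, reached without embryos 1 and 4. The edgeR test against a fold change of 4 asks another question and gave an adjusted p of 0.90. The number of all genes called moved from 5001 to 8960 with a fold change above 2 and to 1744 when the fold change was tested against 4, and was 3683 to 5290 with 1 library left out. Other pathway genes called numbered 19 to 35, against 25. Scaling by library size alone moved the median log2 fold change of all genes from 0.04 to 0.26. Same-numbered animals of both stages share only a number. Their deviations had correlations of 0.08 and 0.02 over 12744 genes. With a replicate block, 4236 genes and 9 of the 10 were called, and the median was 0.20. In that fit the stage difference rests on embryos 1 and 2, because no other embryo shares a number with an adult.

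For *Pcsk1* to *Pcsk2* and *Scg5* to *Pcsk2*, the differences were -4.08 and -5.52 with the unstranded count (adjusted exact permutation p = 0.125 and 0.0833), where embryo 1 had 2 counts of *Pcsk2*. They were -4.38 and -3.51 with the length and GC correction (0.0278), and -3.45 and -4.71 without embryos 1 and 4 (0.0714). Leaving out 1 library gave -4.28 to -3.33 and -6.04 to -4.46, with adjusted p of 0.0536 for an embryo and 0.188 for an adult, since fewer arrangements remain. *Pcsk1n* to *Pcsk1* gave -0.23 to 0.31, below 0 without embryo 1, 5 or 7, and 2.04 with the length and GC correction. The cause was not tested. Depth limits *Vgf* and *Pcsk2* in the embryos, and 2 adults limit every comparison.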

Other observations

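Some genes of the peptide pathway differed widely between the adults. *Gal*, the precursor of galanin, had 46.7 and 1.24 CPM in adults 1 and 2, from 1928 and 44 counts, and at most 1.10 CPM in the embryos. *Slc18a2*, the vesicular monoamine transporter, had 17.6 and 3.01 CPM in the adults and at most 0.635 CPM in the embryos. *Pcsk6* had 223 and 80.1 CPM. *Aebp1*, a relative of the carboxypeptidases that was not called, had 117 and 14.2 CPM in adults 1 and 2, the latter within the embryo range of 8.85 to 32.6 CPM. No replicate check is possible for a single animal.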
